A study of Bos taurus with 22 samples.

Results

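The sterol regulatory element-binding proteins (SREBPs), the liver X receptors (LXRs) and the carbohydrate response element-binding protein (ChREBP) are the transcription factors best known for driving the genes of fat and cholesterol synthesis. Their messages, with those of the proteins that hold or release the SREBPs, were followed in the subcutaneous fat of dairy heifers across calving. The 8 genes were SREBF1, SREBF2, SCAP, INSIG1, INSIG2, MLXIPL, NR1H3 and NR1H2, and every probe set whose only gene symbol was one of these was taken. This gave 19 of the 24016 bovine probe sets of the array, of which 13 lay above a filter on dim probe sets and 6 below it, and each of the 8 genes kept at least 1 probe set. No regulator passed the test of a difference between late pregnancy and early lactation, whereas FASN and SCD, which encode enzymes that these factors are known to drive, were 3.08-fold and 3.55-fold lower in early lactation.

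The animals were 11 Holstein heifers at their first calving, aged 24 to 28 months, all raised on a single farm and the same diet, with no dietary treatment under study. Dorsal subcutaneous white fat was sampled from each at day -30 (prepartum) and again at day 14 after calving (postpartum), giving 22 Affymetrix arrays, 11 per group, paired by cow. No genotype or agent set the groups apart. The labels give the stage around calving and describe the rations fed before and after it separately, so stage and ration cannot be told apart. The sample titles fall into 2 sets of arrays, one of 5 cows (set 1) and one of 6 (set 2), and both arrays of a cow were in the same set.

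SREBP1, the product of SREBF1, drives genes of fatty acid and triglyceride synthesis, and SREBP2, the product of SREBF2, mainly those of cholesterol synthesis. Both are made as precursors in the membrane of the endoplasmic reticulum, where SCAP escorts them to the Golgi for cleavage and the INSIG proteins hold SCAP back when sterols are plentiful. The LXRs, NR1H3 (LXR alpha) and NR1H2 (LXR beta), are nuclear receptors for oxidised sterols that induce SREBF1 itself and genes of cholesterol export, and MLXIPL encodes ChREBP, which responds to glucose metabolites. Much of the control of these proteins lies in cleavage, location or ligand and is not read by a measurement of messenger RNA.

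Each value below is a level, log2(signal + 7.78), where the signal is the deposited linear intensity of a probe set and 7.78 is a small constant that damps noise in dim probe sets. A change is the postpartum minus the prepartum level, in log2 units. On this scale the changes of dim probe sets are understated, and levels of different probe sets are not comparable with each other. The test was limma's moderated test with cow as a block over the 14410 probe sets above the filter, called at a Benjamini-Hochberg adjusted p under 0.05.

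The deposited signals had been brought to a common scale: the trimmed mean was 125 on every array, and the median signal ran from 39.9 to 47.4. Some biopsies carried RNA of other tissues. The summed level of 13 skeletal muscle genes, as the median departure from each gene's own median, was 8.09 in the postpartum array of cow 384, 7.44 in the prepartum array of cow 387, 4.51 in the postpartum array of cow 386 and 3.22 in the prepartum array of cow 384. The group medians of this list were -0.05 prepartum and -0.02 postpartum. Of the keratinocyte list 2 genes lay above the filter, and they differed: KRT10 stood 6.11, 5.03, 2.90 and 2.90 above its own median in the prepartum arrays of cows 341, 382, 330 and 331, with no postpartum array over 0.46, whereas KRT5 kept within -0.54 and 0.51 in all prepartum arrays. The adipocyte list ran from -0.31 to 0.25 prepartum (median 0.09) and from -1.76 to 0.28 postpartum (median -0.02). The lowest value was that of cow 384. Of the 13 genes of the list 9 had a negative and 4 a positive change, with a median of -0.46. LEP, LPL and GPD1 were called lower. The 4 with a positive change were ADIPOQ, FABP4, CD36 and LIPE, at 0.0009, 0.08, 0.16 and 0.13. The 12 macrophage genes above the filter all had a positive change, with a median of 0.30, and none was called. Among 10 endothelial genes VWF and TEK were called higher, and among 13 fibroblast and progenitor genes PI16 was called higher and MFAP5 lower. Samples of the same cow deviated together in 10 of the 11 cows (correlations of 0.18 to 0.43), but not in cow 387, at -0.09. The part of these tissue differences in the results was not tested. The values of a regulator's brightest probe set are also given without these cows where that moved its mean change by over 1.5 times. In bulk tissue, fewer cells of a type and less RNA per cell cannot be told apart.

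SREBF1 was represented by 4 probe sets, 3 of them above the filter, and all 4 had lower mean levels postpartum, but none passed the test. The brightest probe set ran from 8.76 through a median of 9.37 to 10.04 prepartum and from 8.39 through 8.82 to 9.72 postpartum. The groups overlapped over most of their range. Its mean was 9.39 ± 0.45 before calving and 8.95 ± 0.38 after it (SD, n = 11 cows), a change of -0.44 (SE 0.16, 95% confidence interval -0.79 to -0.09; limma adjusted p = 0.151).

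The changes of single cows on this probe set lay on either side of a gap. In 6 cows (346, 382, 384, 341, 331 and 360) its change lay between -1.25 and -0.66, and in the other 5 (338, 347, 386, 387 and 330) between 0.02 and 0.46, with none in between. Each array set held 3 of the 6 cows. The second probe set had a change of -0.29 (SE 0.13, interval -0.56 to -0.02, limma adjusted p = 0.219) and the third -0.37 (SE 0.14, interval -0.66 to -0.08, limma adjusted p = 0.149). Each of these was lower postpartum in 9 of 11 cows. The gap on the brightest probe set took 39.7% of the range of the changes, against 30.7% and 27.6% for the largest gap on these and up to 45.1% among the other regulators' probe sets above the filter. The fourth, below the filter, went from 4.11 to 3.80 and was lower in 6 cows. Without cows 384 and 387, whose arrays carried the most muscle RNA, the 3 probe sets above the filter had changes of -0.45, -0.34 and -0.40, with limma adjusted p of 0.127, 0.0685 and 0.129 (n = 9). With cow 386 left out as well they were -0.53, -0.36 and -0.49 (limma adjusted p = 0.0942, 0.0775 and 0.065, n = 8), and without cows 330, 331, 341 and 382 they were -0.35, -0.22 and -0.17 (limma adjusted p = 0.558, 0.681 and 0.717, n = 7).

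SREBF2 gave a smaller mean difference that rested on few animals. Its brighter probe set ran from 7.13 through 7.51 to 8.01 prepartum and from 6.57 through 7.31 to 7.91 postpartum. The mean change was -0.23 (SE 0.13, interval -0.52 to 0.05, limma adjusted p = 0.359), but the median cow changed by only -0.03. Cows 384, 341 and 330 had changes of -1.20, -0.83 and -0.73, and the other 8 lay between -0.31 and 0.32. The mean was -0.04 in set 1 and -0.39 in set 2. It was -0.15 without cows 384 and 387, -0.11 without cows 330, 331, 341 and 382, -0.13 without cow 384 alone and -0.11 with array weights. The dim second probe set, below the filter, went from 4.19 to 3.86 and was lower in 8 of 11 cows.

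**Figure D1:**
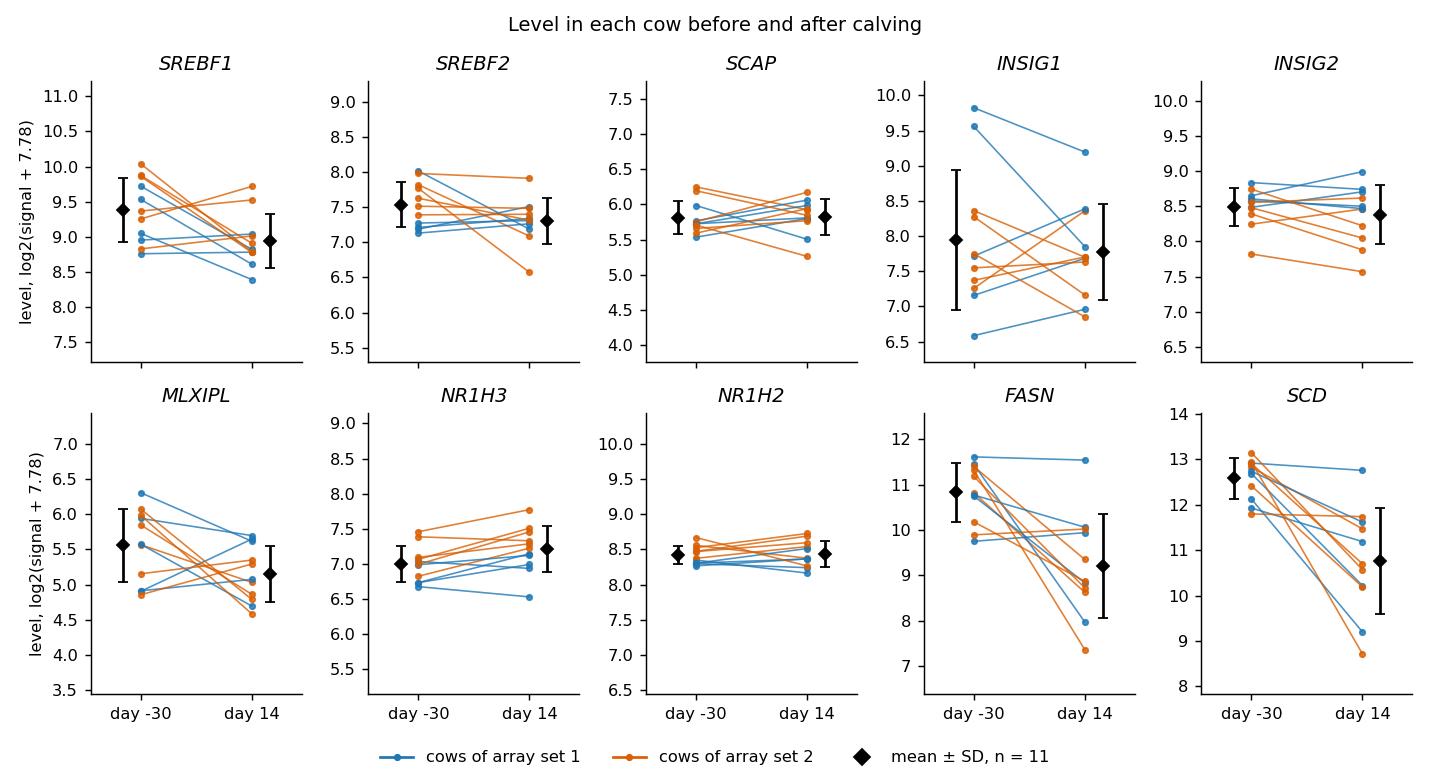
Level of the brightest probe set of each regulator and of FASN and SCD, in log2(signal + 7.78), in the prepartum and postpartum array of each of the 11 cows; a line joins the 2 arrays of a cow, colours give the array set, diamonds with bars give mean ± SD over 11 cows, and each panel has its own vertical axis. Lines run both up and down in every regulator's panel, whereas all 11 cows run down for SCD and 9 of 11 for FASN.

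SCAP, the escort of the SREBPs, had mean levels of 5.81 ± 0.23 prepartum and 5.82 ± 0.26 postpartum (SD, n = 11). Its probe set above the filter ran from 5.53 through 5.72 to 6.25 prepartum and from 5.26 through 5.84 to 6.17 postpartum. The change was 0.02 (SE 0.11, interval -0.22 to 0.26, limma adjusted p = 0.955), higher in 7 cows and lower in 4. The change was 0.0312 without cows 384 and 387 and 0.15 without cows 330, 331, 341 and 382 (limma adjusted p = 0.902 and 0.712). The sign was not stable: it turned negative under quantile normalization, in set 2 alone and when any of 5 cows was left out. The other 3 SCAP probe sets, below the filter, had changes of 0.19, -0.35 and -0.14.

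INSIG1, which is both a brake on SREBP cleavage and itself an SREBP target, varied more between cows before calving than any other regulator's brightest probe set. It ran from 6.58 through 7.71 to 9.83 prepartum (SD 0.998) and from 6.85 through 7.70 to 9.20 postpartum (SD 0.68). The highest prepartum values were those of cows 331 and 341, 9.83 and 9.56, both among the 4 cows with raised KRT10 in that array. Cows 382 and 330, also among these 4, stood at 8.28 and 7.26, the latter below the median. The mean change was -0.17 (SE 0.23, interval -0.66 to 0.31, limma adjusted p = 0.718), with 5 cows lower and 6 higher. Single cows ranged from -1.71 in cow 341 to 1.10 in cow 330. Without cows 330, 331, 341 and 382 the mean change was 0.061, without cow 341 alone it was -0.0213, and without cow 330 alone it was -0.30.

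INSIG2 is the second INSIG protein, and its 3 probe sets, all above the filter, did not share a direction. The brightest ran from 7.82 through 8.55 to 8.84 prepartum and from 7.57 through 8.47 to 8.99 postpartum, a change of -0.11 (SE 0.09, interval -0.31 to 0.09, limma adjusted p = 0.565). The others changed by 0.16 (interval -0.05 to 0.36, limma adjusted p = 0.387) and -0.14 (interval -0.34 to 0.05, limma adjusted p = 0.408). The first and last of these were lower in 7 of 11 cows and the second higher in 8, so no direction can be given for the gene. In set 1 alone the brightest probe set was positive, at 0.0501, and without cows 330, 331, 341 and 382 it stood at -0.21. It was -0.0595 without cows 384, 386 and 387.

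MLXIPL lay just above the filter, and did not pass the test. The brighter probe set, at the 45th percentile of mean level, ran from 4.85 through 5.57 to 6.31 prepartum and from 4.58 through 5.07 to 5.70 postpartum. The change was -0.41 (SE 0.20, interval -0.83 to 0.01, limma adjusted p = 0.268), with 7 cows lower and 4 higher. Cows 384 and 382 had the lowest changes, -1.40 and -1.29, and cow 338 the highest, 0.74. The mean was -0.18 in set 1 and -0.60 in set 2, and this difference did not pass its test (limma adjusted p = 0.997). It was -0.36 without cows 384 and 387, -0.25 without cows 330, 331, 341 and 382, and -0.26 with a pseudocount of 32 in place of 7.78. The second probe set, below the filter, went from 3.75 to 3.49, lower in 9 of 11 cows but higher by 1.42 in cow 384.

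NR1H3 had higher mean levels postpartum on both its probe sets, but neither passed the test. Its brighter probe set ran from 6.68 through 6.996 to 7.46 prepartum and from 6.53 through 7.22 to 7.77 postpartum. The groups overlapped widely. The change was 0.21 (SD 0.23, SE 0.08, interval 0.04 to 0.38, limma adjusted p = 0.169). Single cows ranged from -0.15 to 0.46, and 8 of 11 cows were higher. The second probe set went from 5.96 ± 0.42 to 6.21 ± 0.20 (SD, n = 11), a change of 0.25 (SE 0.11, limma adjusted p = 0.244), higher in 9 of 11 cows. The values without cows 384 and 387 were 0.19 and 0.20, with limma adjusted p of 0.215 and 0.358. The macrophage genes, whose cells are known to express NR1H3, had medians of -0.15 prepartum and 0.23 postpartum, and their part in this difference was not tested.

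NR1H2, the more widely expressed LXR, had the smallest SD between cows among the 8 brightest probe sets, 0.13 prepartum and 0.19 postpartum. Its probe set ran from 8.27 through 8.37 to 8.67 prepartum and from 8.16 through 8.38 to 8.73 postpartum. The change was 0.02 (SE 0.07, interval -0.14 to 0.18, limma adjusted p = 0.902), with 7 cows higher and 4 lower. Its lowest single change was -0.40, in cow 384. The mean change was 0.059 without cows 384 and 387 and 0.041 without cows 384, 386 and 387. The mean changes of FASN and SCD lie outside this interval, as they do outside that of every other regulator probe set above the filter.

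Of the 13 regulator probe sets above the filter, 8 had a negative and 5 a positive change, and limma called 0 of them, against 3.43% of all probe sets tested (494 of 14410). At an unadjusted p under 0.05, 5 of the 13 passed (38.5%), against 19.8% of all probe sets tested. These 5 are the 3 of SREBF1, which were lower, and the 2 of NR1H3, which were higher, so they stand for 2 genes and not for 5 separate measurements. The adjusted p of the 13 ran from 0.149 to 0.955. The median change over the 8 brightest probe sets was -0.14, against 0.01 over all probe sets tested. The prepartum and postpartum arrays overlapped in all 19, whereas they did not in 0.0555% of the probe sets tested. The difference in change between the 2 array sets was called for 0 of the 13, as for 0% of all probe sets tested, and at an unadjusted p under 0.05 for 0 of the 13 against 3.58% of all. No probe set of the regulators was called without the filter either, or under any other setting tried. In simulated data the fit recovered 41% of changes of 0.5 log2 units. The largest regulator mean was -0.44, so changes of the size seen here can be missed.

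**Figure D2:**
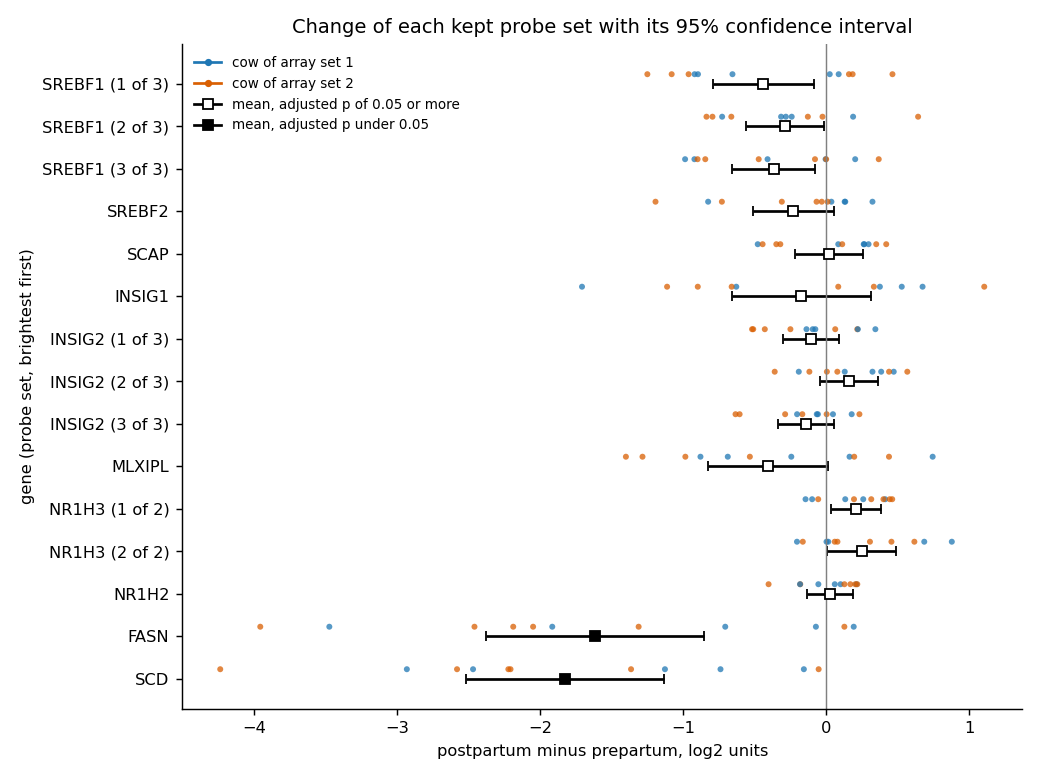
Change of each probe set above the filter, postpartum minus prepartum in log2 units, with each cow as a dot coloured by array set, the mean as a square and its 95% confidence interval as a bar. All 13 regulator means have open squares (adjusted p of 0.05 or more) between -0.44 and 0.25, whereas FASN at -1.62 and SCD at -1.83 have filled squares (adjusted p under 0.05).

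FASN, the fatty acid synthase, and SCD, the stearoyl-CoA desaturase, fell after calving. FASN ran from 9.75 through 10.82 to 11.61 prepartum and from 7.36 through 8.87 to 11.54 postpartum, and fell by 1.62 (SE 0.36, interval -2.38 to -0.86, limma adjusted p = 0.0239), in 9 of 11 cows. SCD ran from 11.80 through 12.74 to 13.15 prepartum and from 8.71 through 10.70 to 12.76 postpartum, and fell by 1.83 (SE 0.32, interval -2.52 to -1.14, limma adjusted p = 0.00774), in 11 of 11 cows. The postpartum values spread far more than the prepartum ones for both, with SDs of 1.15 against 0.65 for FASN and 1.17 against 0.45 for SCD. The changes without cows 384 and 387 were -1.56 and -1.76 (limma adjusted p = 0.0104 and 0.00175). The call for FASN was lost when any one of cows 330, 341, 346, 360 or 382 was left out, with limma adjusted p of 0.0544, 0.0588, 0.0562, 0.057 and 0.0616. The call for SCD held without any single cow. Neither was called in set 1 alone, in set 2 alone or without cows 330, 331, 341 and 382, where the changes were -1.38 for FASN and -1.99 for SCD.

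FASN and SCD changed by more than the regulators in the same animals. The change of FASN minus that of the brightest SREBF1 probe set was -1.18 ± 1.22 (SD, n = 11), negative in 9 of 11 cows (exact two-sided sign-flip permutation p = 0.0127). For SCD the difference was -1.39 ± 1.09, negative in 10 of 11 cows (exact permutation p = 0.00293). Across the 16 such differences, 2 targets against 8 regulators, the means ran from -1.18 to -2.04, and Benjamini-Hochberg adjusted p ran from 0.00391 to 0.0127, where the smallest unadjusted p that 11 cows allow is 0.000977. These differences share the 2 targets and are not independent, and they were chosen after the values had been seen. They also set probe sets of unlike brightness against each other. SCAP and MLXIPL lay at percentiles 52.4 and 45 of mean level, FASN and SCD at 97.1 and 99.3. Changes of dim probe sets are understated on this scale, and the part of brightness in these differences was not tested. In set 1 alone the differences from SREBF1 were -0.72 for FASN and -1.01 for SCD (exact permutation p = 0.375 and 0.125, n = 5, a number of cows that cannot reach 0.05).

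Around the regulators, the list of SREBP1 and lipogenic targets held 7 of the 11 calls in the 6 lists of targets, processing genes and partners. Each gene was placed in a single list, and FASN and SCD, which the other factors are also known to drive, were counted only here. The counts therefore do not set the targets of SREBP1 apart from those of the LXRs or ChREBP. Of 22 listed SREBP1 and lipogenic target genes, FASN and SCD included, 16 had a probe set above the filter, 3 lay below it and 3 were not matched to a probe set. Of the 16, 7 fell and 0 rose, against 2.16% of the 6984 genes tested called lower and 1.55% called higher, and 15 had a negative change, against 47.4% of all genes. Their median change was -0.94, against 0.01 over all genes. The adipocyte list had a median of -0.46, with 3 of 13 genes called lower. In that list 9 genes had a negative change, while ADIPOQ, FABP4, CD36 and LIPE had positive ones of up to 0.16. The part of the list in these values was not tested. Besides FASN and SCD, the genes that fell were ACSS2, which makes acetyl-CoA from acetate, by 1.67; ACACA, the acetyl-CoA carboxylase, by 1.40; GPAM, the first acyltransferase of triglyceride synthesis, by 1.37; MID1IP1, an activator of that carboxylase, by 0.99; and AGPAT2, the next acyltransferase, by 0.90 (limma adjusted p = 0.0288, 0.0213, 0.0476, 0.0326 and 0.0131). ACLY, which makes acetyl-CoA from citrate, changed by -0.23 and ME1, the malic enzyme, by -0.11, and neither was called. The call for GPAM was lost under quantile normalization, with no filter and with no intensity trend. It was also lost without any one of cows 330, 341, 346, 347, 360, 382, 384 or 386. The count of 7 rested on the set of cows: it was 12 without cow 387, 12 without cows 384 and 387 and 11 without cows 384, 386 and 387; it was 2 without any one of cows 330, 341, 346 or 382, 3 without cow 360, and 0 in each array set alone.

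The sterol arm was called in a single gene. Of 23 listed SREBP2 and sterol target genes 14 were tested, 13 of them with a negative change, and their median was -0.11. EBP, the sterol isomerase, fell by 0.59, in 10 of 11 cows (limma adjusted p = 0.0299), and no gene of this list rose. The largest difference in the list was that of LSS, the lanosterol synthase, at -0.69, which was not called (limma adjusted p = 0.116). The call for EBP was lost when any one of cows 330, 341, 346, 347 or 382 was left out, and with cow as a random block.

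Genes known to respond to the LXRs went in both directions. Of 12 listed, 5 were tested, with a median change of -0.07. APOE, an apolipoprotein of macrophages and fat cells, rose by 0.69, in 10 of 11 cows (limma adjusted p = 0.0143), and LPL, the lipoprotein lipase, fell by 1.18, in 10 of 11 cows (limma adjusted p = 0.0323). APOE is also made by macrophages, whose marker genes had the positive median given above. LPL is also on the adipocyte marker list. PLTP, MYLIP and LPCAT3 had changes of 0.27, -0.07 and -0.13 and were not called.

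Of 10 listed ChREBP target genes 5 were tested, with a median of -0.16. GPD1, the cytosolic glycerol phosphate dehydrogenase, fell by 0.93, in 9 of 11 cows (limma adjusted p = 0.0451), and is on the adipocyte list as well. The calls for LPL and GPD1 were lost when any one of cows 330, 341, 346, 360 or 382 was left out, and that for GPD1 also without cow 347 or 386. Without cows 330, 331, 341 and 382, or in either array set alone, none of the genes named as called in these lists was called. TKT, the transketolase, changed by -0.40 and KHK, the ketohexokinase, by 0.27, and neither was called with all cows; TKT was called without cows 384 and 387 (-0.36, limma adjusted p = 0.0143).

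The machinery around the SREBPs gave no call with all cows and the processing described above. Of 20 listed genes of SREBP processing and turnover 13 were tested, with a median change of -0.06. The site 1 and site 2 proteases that cut the SREBPs, MBTPS1 and MBTPS2, changed by -0.08 and 0.04. The largest difference was that of GSK3B, a kinase that marks SREBPs for breakdown, at -0.35, lower in 10 of 11 cows and not called (limma adjusted p = 0.0671). It was called without cow 387 (-0.42, limma adjusted p = 0.0218), without cows 384 and 387 (-0.41, limma adjusted p = 0.0178), without cows 384, 386 and 387, under quantile normalization (limma adjusted p = 0.0489) and with array weights (limma adjusted p = 0.0314). Of 24 listed partners and coregulators 17 were tested, with a median of 0.02, and again none was called. Among them MLX, the partner of ChREBP, changed by 0.02, RXRA, a partner of the LXRs, by -0.09, and PPARG by -0.25.

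**Figure D3:**
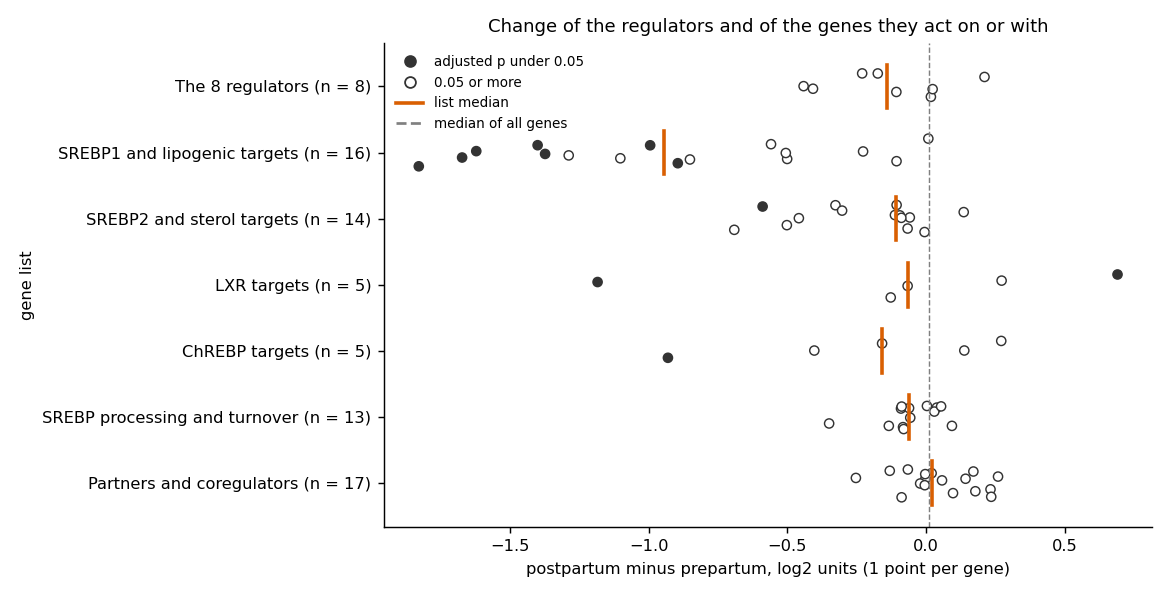
Change of the 8 regulators and of each tested gene of the 6 lists of targets, processing genes and partners, postpartum minus prepartum in log2 units, 1 dot per gene at an arbitrary height within its list; called genes are filled, a bar marks the median of each list and the dashed line the median of all genes. The SREBP1 and lipogenic targets have a median of -0.94, while the medians of the other 5 lists lie between -0.16 and 0.02. Each gene is in a single list, so targets shared by several factors count only once.

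The regulators were next set against their targets within cows, by correlating the changes of the 11 animals. In all 44 relations were computed, 16 of a regulator with FASN or SCD and 28 between regulators. By Pearson's r, 3 passed a Benjamini-Hochberg adjusted permutation p under 0.05 and 7 an unadjusted one; by Spearman's rho 2 passed. The cows whose SREBF2 change was lowest were also those whose FASN change was lowest (r = 0.852, permutation p = 0.00042, adjusted p = 0.0185; rho = 0.873, permutation p = 0.00083, adjusted p = 0.0365). Without cows 384 and 341, the farthest from the median, r was 0.647 (exact permutation p = 0.0432, adjusted p = 0.374, n = 9). Without cows 384 and 387 r was 0.822 (exact permutation p = 0.00559), and within set 2 it was 0.808 (exact permutation p = 0.0458, n = 6). No value was computed within set 1, with 5 cows, for this or the other relations. SREBF2 and SCD gave r = 0.597 (permutation p = 0.0542, adjusted p = 0.291; rho = 0.5).

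The changes of MLXIPL and FASN were also correlated across cows (r = 0.811, permutation p = 0.00313, adjusted p = 0.0459; rho = 0.836, permutation p = 0.0022, adjusted p = 0.0484). Without cows 338 and 386, the farthest from the median, r was 0.824 (exact permutation p = 0.00755, adjusted p = 0.111, n = 9), and within set 2 it was 0.827 (exact permutation p = 0.025, n = 6). Without cows 384 and 387 it was 0.734 (exact permutation p = 0.026). With SCD the value was 0.708 (permutation p = 0.0152, adjusted p = 0.134; rho = 0.709). The adjusted p did not stay under 0.05 when single cows were left out: SREBF2 with FASN lost it without any one of 4 cows (331, 338, 347 or 384), with r from 0.78 to 0.90, and MLXIPL with FASN in 9 of 11 cases, all but those without cow 341 or 386, with r from 0.753 to 0.852.

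The third relation that passed was SREBF1 with INSIG1. Over all 11 cows r was 0.842 on the brightest SREBF1 probe set (permutation p = 0.00233, adjusted p = 0.0459; rho = 0.782, adjusted p = 0.0921), and 0.78 without the 2 cows farthest from the median (exact permutation p = 0.0182, adjusted p = 0.2, n = 9). It was 0.83 without cows 384 and 387 (exact permutation p = 0.00973) and 0.929 in set 2 (exact permutation p = 0.0208, n = 6). These values span the gap between the 6 and 5 cows described above. Within the 6 r was 0.484 (exact permutation p = 0.292, rho = 0.486), and no value was computed for the other 5. The 6 were picked by the SREBF1 change itself, which narrows its range. The lower r among them therefore cannot tell whether the relation rests on the gap. The brightest SREBF1 probe set gave r = 0.506 with FASN and 0.513 with SCD (permutation p = 0.114 and 0.106, adjusted p = 0.384 for both; rho = 0.5 and 0.536), so neither relation passed. With MLXIPL it gave 0.74 (permutation p = 0.0132, adjusted p = 0.134; rho = 0.727).

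After these values had been seen, the next 2 SREBF1 probe sets were set against the same 4 genes, 8 relations in all. They gave r of 0.701 and 0.787 with INSIG1 (permutation p = 0.0153 and 0.00629; rho = 0.655 and 0.673), and 0.813 and 0.842 without the 2 cows farthest from the median. With FASN these probe sets gave 0.775 and 0.412 (permutation p = 0.00523 and 0.205), and with SCD 0.749 and 0.235 (permutation p = 0.00778 and 0.485). With MLXIPL they gave 0.754 and 0.698 (permutation p = 0.00728 and 0.0207). Adjusted over these 8 relations, p was 0.0244 and 0.0156 for INSIG1, 0.0156 and 0.234 for FASN, 0.0156 and 0.485 for SCD and 0.0156 and 0.0277 for MLXIPL. The 3 SREBF1 probe sets thus gave different values with FASN and with SCD.

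The remaining regulators showed no relation with the targets that passed. SCAP, INSIG2, NR1H3 and NR1H2 had r with FASN of 0.207, 0.125, -0.34 and 0.225, and INSIG1 of 0.563 (permutation p = 0.532, 0.708, 0.3, 0.508 and 0.0729). These values moved with the cows included. Without cows 384 and 387 NR1H3 gave -0.673 with FASN and -0.744 with SCD (exact permutation p = 0.0507 and 0.0276, unadjusted, n = 9), but 0.386 and 0.14 in set 2 alone (exact permutation p = 0.421 and 0.76, n = 6). Without the same cows SCAP, INSIG2 and NR1H2 gave -0.211, -0.0322 and -0.357 with FASN, and in set 2 alone 0.74, 0.247 and 0.653. NR1H3 and NR1H2 gave r = 0.64 with each other (permutation p = 0.0313, adjusted p = 0.229; rho = 0.709).

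**Figure D4:**
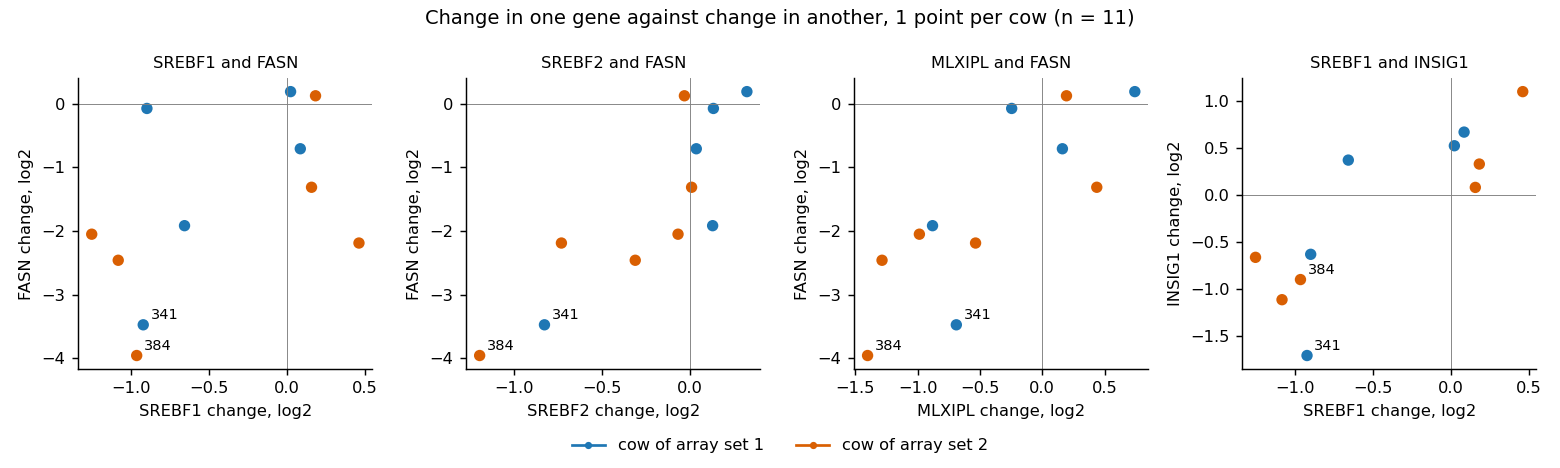
Changes of the regulators against changes of their targets or of each other in the same cow, both in log2 units, 1 dot per cow coloured by array set, with cows 341 and 384 labelled. The SREBF1 axis shows 6 cows between -1.25 and -0.66 and 5 between 0.02 and 0.46; cows 384 and 341 lie farthest from the rest in the panel of SREBF2 and FASN.

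Finally, the genes whose levels ran most like each regulator over the 22 arrays were listed by Spearman's rho among the 6983 other genes tested, as a description that includes the difference between stages, the cow and the array. For SREBF1 these were ADIPOR2, an adiponectin receptor (0.79), AGPAT2 (0.77) and CCDC69 (0.76). SCD stood at rank 57 (0.66) and FASN at rank 136 (0.59). For MLXIPL they were RGCC and CDH1 (both 0.83) and PRR5L (0.78), with FASN at rank 27 (0.72) and SCD at rank 65 (0.66). Among the 8 regulators FASN stood highest in the order of MLXIPL.

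For SREBF2 the list was KANSL2 (0.80), CDR2 (0.79) and GOSR2 (0.74), and FASN was at rank 715 (0.38), although the changes of SREBF2 and FASN had the highest r of all regulators. Levels over 22 arrays hold the differences between cows, which a change within a cow leaves out. INSIG1 ran most like SH3GL2 (0.80), ITPR2 (0.76) and LACTB2 (0.75), and INSIG2 most like KLF10 (0.83), ZC2HC1A (0.79) and STON1 (0.79). SCAP had the lowest top values, with HSF4 (0.73), PIK3R2 (0.70) and HCRT (0.70). NR1H3 ran most like SAP30L (0.86), NUMA1 (0.84) and RHNO1 (0.84) and opposite to FASN (-0.64). NR1H2 had the closest likenesses of all, with WBP2 (0.91), HGS (0.90) and JAM3 (0.90).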

How the data were processed

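Total RNA of 22 fat biopsies was hybridised to Affymetrix bovine arrays, per the labels. The authors deposited linear MAS5 intensity values, per the submitters' processing notes; the trimmed mean (2% off each end) was 125 on every array, so levels are relative to the whole array. Of 24128 probe sets, 112 array controls were left out, and 13292 of the rest had 1 gene symbol, 86 several and 10638 none in the platform annotation. Symbols were updated by Entrez identifier through RefSeq names.

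Signals were taken as log2(signal + 7.78), 7.78 being the 20th percentile of all signals. Probe sets with a mean at or above the 40th percentile were kept (14410). Each was tested in R 4.3.3 with limma 3.58.1 (intensity trend, cow as a fixed block, Benjamini-Hochberg adjustment), and a gene was represented by its brightest kept probe set (6984 genes). The array set was tested as an interaction. On simulated data with normal noise the fit recovered 88% of 100 changes of 1 log2 unit and 41% of 100 changes of 0.5. There 7 of 136 calls were false. Pairing comes from the cow numbers in the titles and the paired design; correlations of same-cow deviations were 0.18 to 0.43 in 10 cows and -0.09 in cow 387. The number of arrays limits the precision, and p-values measure the spread between these cows.

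Every member gene with its FASN and SCD context was named, with all called genes of the target lists and up to 3 genes of most similar level. Members and lists were chosen with earlier results of these data known. Permutation tests of correlations used 100000 resamples for 10 or more cows and were exact below that (Python 3.11.15, numpy 2.4.6). The sign-flip tests used every pattern of signs and were exact throughout. Sequences and coordinates were not used here.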

Additional observations from a re-analysis of the deposited data

Results flagged for a closer look

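In array set 1 the SREBF2 change of cow 341 was -0.83, while the other 4 cows lay between 0.04 and 0.32; its gap to the nearest cow was 0.75 of the range, above the 95% critical value of Dixon's test (0.71 for 5 cows). In the same set the SCAP change of cow 331 was -0.48, against 0.08 to 0.29 in the others, a gap of 0.727 of the range. Both cows were among the 4 with raised KRT10, a keratinocyte gene, before calving, and its part in these values was not tested. Cow 331 changed by 0.13 in SREBF2 and cow 341 by 0.29 in SCAP, within the ranges of the other cows. In all 16 groups of changes were examined, 8 regulators in 2 array sets, and chance flags about 1 in 20.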

How the results depend on the processing

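No regulator probe set was called in any setting run, and the difference between array sets gave 0 calls in each. The number of probe sets called between stages, 494, was less stable: it was 1076 with array weights, 291 with an ordinary paired test, 1048 at a threshold of 0.10, 69 in array set 1 alone and 0 in set 2 alone by limma (1526 at an unadjusted p under 0.05). With cows 384 and 387 left out it was 1070, with cow 386 left out besides 950, and with the 4 cows of raised KRT10 (330, 331, 341 and 382) left out 6. Leaving out each cow in turn gave 242 (without cow 382) to 969 (without cow 384). With no replicate block the count was 338 and with cow as a random block 708. The regulators had no call under either, and the calls of EBP, APOE, AGPAT2, MID1IP1 and GPD1 were lost without the block. The ordinary paired test left 1 of the 7 calls among SREBP1 targets, SCD, and ended those of EBP, APOE, LPL and GPD1 (adjusted p = 0.0737, 0.0518, 0.0937 and 0.114); GPD1 was also lost with no filter (0.063) and with no intensity trend (0.0527). The 3 relations that passed were 2 by Spearman's rho, 0 without the 2 cows farthest from the median, 0 without cows 384 and 387, 0 in set 2 alone and 0 to 4 without single cows; fewer cows entered each. Signs turned for SCAP under quantile normalization (-0.0013), in set 2 alone (-0.0401) and without single cows (-0.0235 to 0.0663), for INSIG2 in set 1 alone (0.0501) and for INSIG1 without cows 330, 331, 341 and 382 (0.061). The cause was not tested. The other SREBF1 probe sets, the 6 cows, the differences between changes and the setting without cows 384, 386 and 387 were added after the data were seen; the other alternatives were planned. The 6 dimmest regulator probe sets were tested only without the filter.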
